A study of Triticum turgidum subsp. durum with 24 samples.

Results

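The interaction examined here is the response to combined drought and heat stress (CS) in the durum wheat cultivar (cv) Ofanto minus the same response in the cv Cappelli, where a response is the log2 signal in CS minus the log2 signal in control. It was computed from 12 of the 24 arrays of the series, chosen by their titles: 3 arrays each of Ofanto CS, Ofanto control, Cappelli CS and Cappelli control. Of 61179 probe sets (PSs, the groups of short oligonucleotides that each report a transcript) other than the array's own controls, 26861 were kept because at least 1 of the 4 groups had all of its 3 arrays above the 60th percentile, taken array by array. A positive interaction means that the signal moved upwards in Ofanto relative to its movement in Cappelli. PSs are identified here by the code of their best Arabidopsis match, where the study's tables give one. A positive value can come from a rise in Ofanto, from a fall in Cappelli or from both, and each of these is given separately for the genes named.

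The series measured leaf RNA of the 2 cvs under control, drought (DS), heat (HS) and CS conditions on Affymetrix wheat arrays. In all 4 groups used, plants of an inbred cv were raised in pots in a growth chamber, and leaf RNA was taken, from flag leaves at booting by the methods and from the third leaf by the labels. CS plants of both cvs were brought to a soil water content of 12.5% and a temperature of 40 °C, while control plants of both cvs stayed at 28% and a day temperature of 19 °C. The leaves did not reach the same state: by the study's measurements, Cappelli leaves in CS had a lower relative water content and a higher temperature than Ofanto leaves. The part of this in the interaction was not tested. No genotype differs from its cv by a transgene or a mutation, so the 2 genotypes differ over the whole genome, and each cv is represented by 3 arrays per group from growth-chamber plants only. The methods call the 3 arrays of a group biological replicates, and no source used here says how many plants stand behind each RNA sample. For replicates 2 and 3 of Ofanto control the description names drought, whereas title and source name give control. They were kept as control, and counts without them are given below.

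Leaves that dry out while the air is hot must hold protein structure and membranes together with little transpiration left to cool them. Heat shock proteins, which bind unfolded proteins and are induced through heat shock transcription factors, are the classical heat response, and dehydrins and other late embryogenesis abundant (LEA) proteins, many of them induced by abscisic acid (ABA), are the classical response to drying. The study describes Ofanto as the cv of lower and Cappelli as the cv of higher water use efficiency, that is, carbon gained per water lost.

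All 12 arrays had a trimmed mean signal of about 500.3, to which the deposited values had been scaled. Arrays of Cappelli CS scattered more than those of the other groups, with a median SD of 0.31 on the log2 scale, against 0.22 in Ofanto CS, 0.19 in Ofanto control and 0.18 in Cappelli control. Within Cappelli CS, replicates 1 and 3 stood apart, with median absolute log2 differences of 0.38 and 0.38 from their group, against 0.16 to 0.24 for the other 10 arrays. The 3′ minus 5′ log2 difference of the ubiquitin control PSs, a sign of RNA integrity, averaged -1.47 ± 0.15 in Ofanto CS and -0.96 ± 0.10 in Ofanto control, against -1.43 ± 0.12 in Cappelli CS and -1.29 ± 0.15 in Cappelli control (SD, n = 3 each). Of 7 such pairs of control PSs only this 1 was above the 60th percentile at both ends on all 12 arrays, a condition set after the values of a version with 4 pairs had been seen, and its part in the results was not tested. Markers of leaf mesophyll (9 PSs of light-harvesting, photosystem II and Rubisco activase genes) were above the 60th percentile in all 4 groups in 7 cases, and none of the 9 was called for the interaction. Their summed signal was 131731 to 163593 in Ofanto CS and 261361 to 299275 in Ofanto control, against 107331 to 178158 in Cappelli CS and 165577 to 188636 in Cappelli control. These sums mix directions: a Rubisco activase PS, with group means of 67621 in Ofanto CS and 1584 in Ofanto control, against 62374 in Cappelli CS and 1285 in Cappelli control, rose in both cvs, while a light-harvesting LHCB5 PS had 8858 and 76748, against 18054 and 46524, and fell in both.

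The CS response differed between the cvs for 3810 PSs, which is 14.2% of the PSs tested, at an adjusted p under 0.01 in limma and a difference of at least 2-fold. The interaction was positive for 1883 (7.01%) and negative for 1927 (7.17%). For 2762 of the 3810 the response was larger in absolute size in Ofanto, and for 1048 it was larger in Cappelli. The CS responses themselves were called for 8983 PSs in Ofanto (33.4%), of which 3824 rose (14.2%) and 5159 fell (19.2%), and for 5427 in Cappelli (20.2%), of which 2477 rose (9.22%) and 2950 fell (11.0%). Without Cappelli CS replicate 1 the interaction was called for 4627 PSs and without Cappelli CS replicate 3 for 3825. Without both Ofanto controls whose descriptions differ from their titles, 1454 PSs were called, 1022 positive and 432 negative. The split into positive and negative calls depended on the scaling: with every array centred on its own median, 2786 calls were positive and 1019 negative. The array medians themselves had an interaction of -0.28, and centring adds this amount to every PS.

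**Figure D1:**
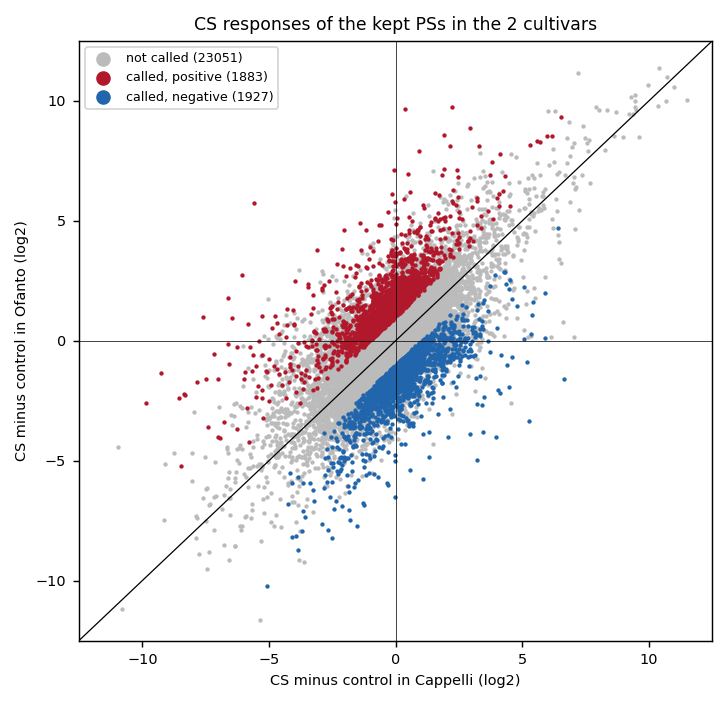
CS response (CS minus control, log2) of each of the 26861 kept PSs in Ofanto (vertical axis) against that in Cappelli (horizontal axis), 1 point per PS, with the line of equal responses. The 1883 PSs called with a positive interaction (red) lie above the line and the 1927 called with a negative one (blue) below it, and 23051 were not called (grey).

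Most calls were responses of Ofanto that were not called in Cappelli. Among the positive interactions, 951 PSs rose in Ofanto and were not called in Cappelli, and among the negative ones, 1071 fell in Ofanto and were not called in Cappelli. The Cappelli response alone was called in 369 positive calls, in which the signal fell in Cappelli, and in 306 negative calls, in which it rose there. Both cvs rose in 161 of the positive calls and both fell in 203 of the negative ones, and in these the response of Ofanto was the larger. The cvs responded in opposite directions in 74 PSs, 38 of which rose in Ofanto and fell in Cappelli and 36 of which fell in Ofanto and rose in Cappelli. In 317 positive and 291 negative calls neither response alone was called.

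**Figure D2:**
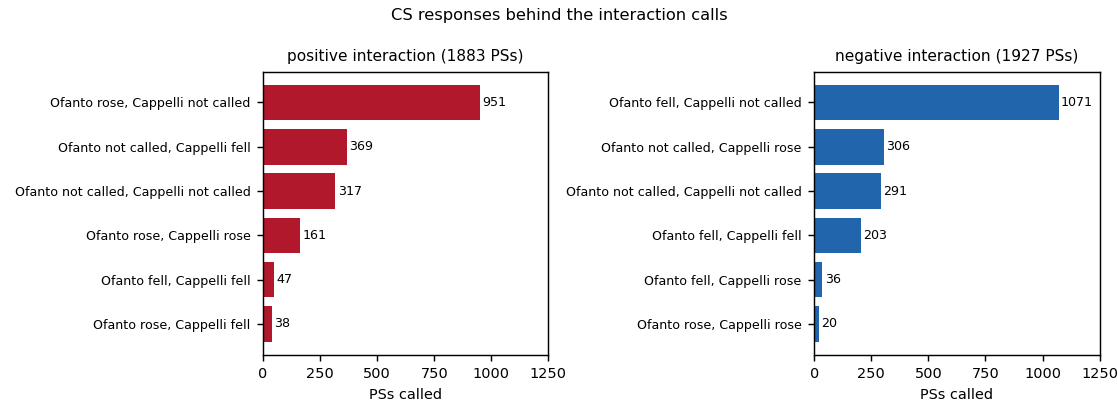
Number of PSs (horizontal axis) in each combination of called CS responses, for the 1883 positive (left) and 1927 negative (right) interactions. The longest bars are rises in Ofanto with no call in Cappelli (951) and falls in Ofanto with no call in Cappelli (1071).

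The starting levels differed as well. Of the 1883 positive calls, 708 were PSs in which the cvs differed in control and not in CS, 431 in CS and not in control, 155 in both and 589 in neither. Of the 1927 negative calls, 474 differed in control and not in CS, 748 in CS and not in control, 125 in both and 580 in neither. Over all PSs tested, the cvs differed for 3765 PSs in CS (14.0%) and for 3767 in control (14.0%). The interaction was at least 8-fold in 256 positive and 194 negative calls. Of the 16868 PSs with all 4 groups above the 60th percentile, 1373 (8.14%) were called positive and 1390 (8.24%) negative, 2763 (16.4%) in all.

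Of the 15 genes that the study took from these arrays for qRT-PCR, 3 were called positive and 2 negative, and the largest interaction was that of HEL (High Expression Level gene), whose function is not annotated. Its signal was 31068, 27896 and 21899 in Ofanto CS and 1298, 950 and 1016 in Ofanto control, against 9.57, 10.0 and 6.62 in Cappelli CS and 48.6, 16.0 and 58.4 in Cappelli control. All 6 arrays of Ofanto thus lay far above all 6 of Cappelli, and the CS arrays of Ofanto far above its controls, whereas all Cappelli arrays were below the 60th percentile. The interaction was 6.68 (SE 0.59, adjusted p = 1.1e-04), with a response of 4.63 in Ofanto and of -2.05 in Cappelli, and since the Cappelli signals are near background neither the Cappelli response nor the interaction has an exact size. In the study's qRT-PCR on younger plants, at tillering, HEL was expressed in unstressed leaves of both cvs. There it was lower under drought than in control in both cvs, whereas its array signal rose in Ofanto CS, at another stage and under another stress. In lines from a cross of the cvs the study mapped a single locus for HEL expression, in the chromosomal region of the gene itself. A separate primer pair on a genomic contig gave a product from Ofanto DNA only. Whether the array oligonucleotides match the Cappelli sequence was not tested. The HEL fragment that the study sequenced from cDNA of both cvs is 223 bases long with a GC content of 50.2%. It is shown because the array signal of HEL set the cvs apart most strongly among the 15 genes, by 11.60 on the log2 scale in CS. Capitals mark the sites of the forward primer and, as its reverse complement, of the reverse primer, which together span 96 bases from position 50 to position 145.
HEL: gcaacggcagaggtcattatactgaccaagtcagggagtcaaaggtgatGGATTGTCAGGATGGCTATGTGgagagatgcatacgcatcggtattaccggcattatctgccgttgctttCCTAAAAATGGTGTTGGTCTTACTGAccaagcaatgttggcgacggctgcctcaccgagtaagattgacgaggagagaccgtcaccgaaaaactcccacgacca

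The other 2 positive genes of that set were called TPA (transposase) and LEA. TPA had signals of 18217, 18199 and 17693 in Ofanto CS and 1258, 1149 and 1167 in Ofanto control, against 6089, 6810 and 7520 in Cappelli CS and 1912, 1760 and 2171 in Cappelli control, with little spread inside each group, and an interaction of 2.12 (SE 0.18, adjusted p = 8.9e-05). LEA was at 4768, 3547 and 5093 in Ofanto CS and 377, 430 and 306 in Ofanto control, against 1257, 913 and 638 in Cappelli CS and 334, 422 and 542 in Cappelli control, so that the cvs overlapped in control and not in CS, with an interaction of 2.50 (SE 0.39, adjusted p = 0.0014). The primers that define these 2 transcripts are given because their array annotation is a name only.
TPA, forward primer: caataagaatgaacttacgagtatgcagta
TPA, reverse primer: tttcgtgggaaaatcgacaga
LEA, forward primer: atcacaaagagccgccacta
LEA, reverse primer: tcggacacaccacaggaat

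The 2 negative genes were less stable. The chloroplast RNA-binding protein Cp33Hv (At3g52380) was at 8662, 8945 and 7422 in Ofanto CS and 4880, 4384 and 4109 in Ofanto control, against 9950, 12319 and 16501 in Cappelli CS and 2829, 2548 and 2011 in Cappelli control. It rose in Cappelli by 2.37 and by 0.90, under 2-fold, in Ofanto. Its interaction of -1.47 (SE 0.28, adjusted p = 0.0038) was not called without Ofanto control replicate 1 (-1.40), without Cappelli control replicate 3 (-1.33) or without Ofanto CS replicate 3 (-1.39). The thaumatin-like protein TLP, of a family that includes defence proteins, was at 4.05, 4.72 and 8.37 in Ofanto CS and 203, 157 and 199 in Ofanto control, against 1365, 1572 and 1387 in Cappelli CS and 5028, 9958 and 12107 in Cappelli control. All Cappelli arrays lay above all Ofanto arrays, and Ofanto CS was at background. Its interaction of -2.54 (SE 0.48, adjusted p = 0.0036) turned positive, at 1.02, when signals under 64 were raised to 64, and was not called without Ofanto control replicate 1 (-2.47) or without Cappelli CS replicate 2 (-2.47). The study picked these 15 genes on the same arrays for a cv difference under drought, so their counts are not independent evidence of a direction.

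Most PSs of heat shock proteins and other chaperones rose in both cvs: all 24 of the small heat shock proteins in Ofanto and 20 in Cappelli, 37 of 41 chaperones in Ofanto and 32 in Cappelli, and 24 of 28 chaperonins in Ofanto and 20 in Cappelli, where 52.2% of all annotated PSs rose in Ofanto and 33.2% in Cappelli. The small heat shock proteins, which keep unfolded proteins from clumping, had a median response of 8.48 in Ofanto and 7.68 in Cappelli, and 4 of 24 PSs were called positive and none negative. Of 41 PSs of HSP70, HSP90, HSP100 and DnaJ chaperones, which fold and unfold proteins with ATP, 11 were called positive and none negative, and the median interaction was 0.89. The median was -0.09 over all kept PSs and 0.37 over all annotated PSs. It was 0.58 over the annotated PSs in the study's table of up-regulated clusters, described below. Chaperonins, the ring-shaped folding machines of chloroplasts and mitochondria, had 5 positive calls and 1 negative call in 28 PSs. The share of positive calls over all 2497 kept PSs with an annotation was 15.9%, and that of negative calls 7.13%, or 23.0% in either direction. Within the 1372 of these that come from the study's table of clusters up-regulated on these arrays the shares were 17.7% and 0.802%, against 13.7% and 14.8% in the other 1125, so a list drawn largely from that table has few negative calls by its making. It holds 36 of the 41 chaperone PSs, 21 of the 24 small heat shock protein PSs and 16 of the 28 chaperonin PSs, and none of these counts or medians is independent evidence of a direction.

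The constitutive HSP70 match HSC70-1 (At5g02500) had signals of 11540, 12442 and 13808 in Ofanto CS and 3643, 3670 and 3701 in Ofanto control, against 3601, 3011 and 2707 in Cappelli CS and 5764, 5222 and 4408 in Cappelli control. Every Ofanto CS array was above the other 9, while the Cappelli CS arrays lay below all 3 of their controls. The interaction was 2.50 (SE 0.21, adjusted p = 8.9e-05), made of a rise of 1.77 in Ofanto and a change of -0.73 in Cappelli that did not reach 2-fold. For a DnaJ match (At5g03160), a partner of HSP70, the signal was 2415, 2376 and 3190 in Ofanto CS and 215, 280 and 270 in Ofanto control, against 1410, 1014 and 1169 in Cappelli CS and 764, 799 and 1177 in Cappelli control. Its interaction was 2.97 (SE 0.30, adjusted p = 2.1e-04), and the order of the cvs was turned round between the conditions, with Ofanto below Cappelli in control and above it in CS. A class I small heat shock protein (At2g29500, HSP17.6) stood at 16016, 16398 and 16306 in Ofanto CS and 1322, 1538 and 1588 in Ofanto control, against 5741, 7273 and 7434 in Cappelli CS and 4001, 4121 and 4588 in Cappelli control. Cappelli controls thus already held a signal above every Ofanto control, and the interaction was 2.78 (SE 0.19, adjusted p = 4.4e-05). The alpha subunit of the chloroplast chaperonin (At2g28000) rose in both cvs, by 2.90 in Ofanto and by 1.30 in Cappelli, with an interaction of 1.60 (SE 0.25, adjusted p = 0.0014).

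Of the 4 heat shock transcription factor PSs none was called in a fit of all 24 arrays. With the 12 arrays 1 was called, beside 23.0% of all annotated PSs in either direction. This match to HSFA2 (At2g26150), in Arabidopsis a factor that prolongs the heat response, had signals of 637, 806 and 546 in Ofanto CS and 16.3, 34.7 and 71.5 in Ofanto control, against 192, 270 and 182 in Cappelli CS and 57.3, 102 and 115 in Cappelli control, and its interaction of 2.98 (SE 0.66, adjusted p = 0.008) kept its call in 3 of the 12 fits that left out 1 array (without Ofanto control replicate 1, Ofanto control replicate 3 or Cappelli control replicate 1), with values from 2.44 to 3.51.

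Of 35 PSs of dehydrins, LEA and other dehydration proteins 9 were called positive and none negative, the median interaction was 0.86, and 25 PSs rose in Ofanto CS and 15 in Cappelli CS. Over all annotated PSs 15.9% were called positive and 7.13% negative, the median interaction was 0.37, and 52.2% rose in Ofanto and 33.2% in Cappelli. Of the 35 PSs, 16 come from the table of up-regulated clusters. PSs whose names end in x_at or s_at may also pick up near-identical copies of a gene.

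The PS that the study assigns to the dehydrin LTI30/Xero2 (x_at), a membrane-binding dehydrin in Arabidopsis, had signals of 1816, 1872 and 2352 in Ofanto CS and 186, 265 and 158 in Ofanto control, against 259, 209 and 184 in Cappelli CS and 259, 252 and 257 in Cappelli control. The 9 arrays outside Ofanto CS lay close together, and the 3 of Ofanto CS stood apart above them. The interaction was 3.58 (SE 0.29, adjusted p = 7.6e-05), with 3.33 in Ofanto and -0.25 in Cappelli. The ABA-responsive protein HVA22e (At5g50720) was at 814, 1191 and 1020 in Ofanto CS and 158, 150 and 179 in Ofanto control, against 470, 491 and 453 in Cappelli CS and 409, 412 and 486 in Cappelli control, so that Cappelli stood above Ofanto in control, was not called for CS, and was below Ofanto in CS. Its interaction was 2.51 (SE 0.22, adjusted p = 1.1e-04). The calcium-binding protein RD20 (At2g33380) rose in both cvs, by 5.72 in Ofanto and by 2.27 in Cappelli, to signals of 1363, 1134 and 1844 in Ofanto CS and 1358, 1030 and 621 in Cappelli CS that overlap. The difference in its response (3.45, SE 0.55, adjusted p = 0.0017) came with controls that did not overlap, 33.9, 39.2 and 14.8 in Ofanto and 167, 193 and 240 in Cappelli, the Ofanto ones being below the 60th percentile.

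A protein named for its low temperature and salt response was positive through Cappelli. It stood at 5421, 4481 and 6139 in Ofanto CS and 5170, 4807 and 4438 in Ofanto control, against 1183, 1285 and 1300 in Cappelli CS and 4098, 3815 and 3535 in Cappelli control, so that the Cappelli CS arrays were the only ones set apart. It fell by 1.60 on the log2 scale in Cappelli and was not called in Ofanto (0.14), with an interaction of 1.75 (SE 0.20, adjusted p = 3.0e-04). LEA14, with an interaction of 1.63 (SE 0.32, adjusted p = 0.0043), lost its call in 5 of the 12 fits without 1 array, those without Ofanto control replicate 2 or 3, Cappelli control replicate 1 or 3 or Ofanto CS replicate 3 (1.51 to 1.62).

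**Figure D3:**
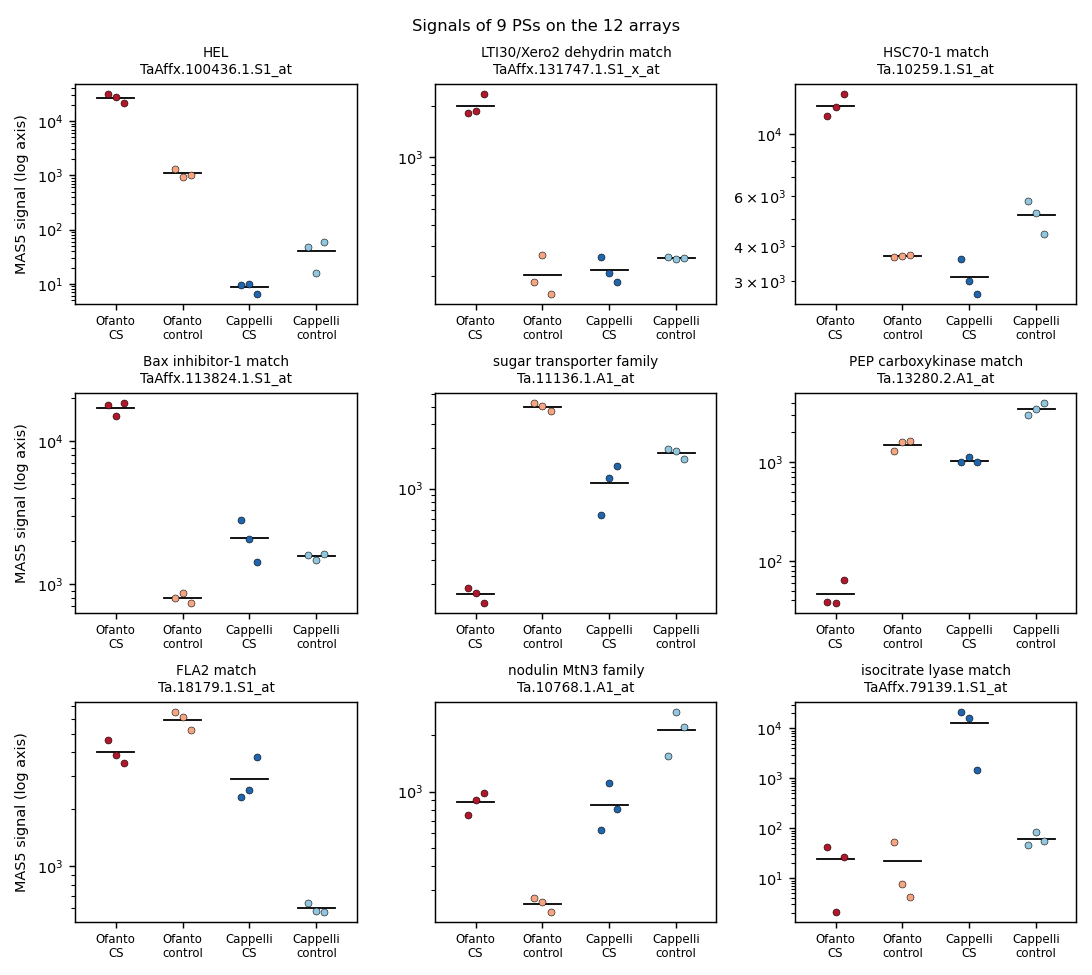
Signals (MAS5, linear values on a log axis that differs between panels) of 9 PSs on the 12 arrays, with Ofanto CS, Ofanto control, Cappelli CS and Cappelli control from left to right. Points are arrays and lines are group means of the linear signal. HEL, the LTI30/Xero2 match, HSC70-1 and Bax inhibitor-1 are highest in Ofanto CS, and the sugar transporter and PEP carboxykinase are lowest there. The FLA2 match is lowest in Cappelli control and the nodulin MtN3 PS in Ofanto control. Isocitrate lyase is high in Cappelli CS alone, with replicate 3 (1481) far below replicates 1 (21085) and 2 (16076).

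Beside the shares of 15.9% positive and 7.13% negative and a median interaction of 0.37 over all annotated PSs, lists of regulators were called as follows. Transcription factors of the annotated families had 13 positive and no negative calls in 60 PSs (median 0.51). RNA recognition motif and splicing proteins had 18 positive and 6 negative in 105 (median 0.53), close to those shares, and ubiquitin and proteasome genes, which mark and degrade proteins, 20 positive and 1 negative in 72 (median 0.74). In the last list 49 PSs rose in Ofanto and 17 in Cappelli, where 52.2% of all annotated PSs rose in Ofanto and 33.2% in Cappelli. Of these lists 38, 67 and 36 PSs come from the table of up-regulated clusters. The 11 chromatin modifiers and condensation factors had 4 positive calls and 1 negative call.

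A MYB family factor (At5g17300) had signals of 9470, 10344 and 9300 in Ofanto CS and 369, 281 and 209 in Ofanto control, against 5982, 4480 and 2586 in Cappelli CS and 1518, 1427 and 1268 in Cappelli control. It rose in both cvs, and in CS as in control the arrays of the 2 cvs did not overlap, with Ofanto above in CS and below in control. The interaction was 3.57 (SE 0.41, adjusted p = 3.3e-04). RAP2.12 (At1g53910), in Arabidopsis an ethylene response factor of the low-oxygen response, stood at 1182, 1134 and 1063 in Ofanto CS and 190, 213 and 236 in Ofanto control, against 1317, 1280 and 1663 in Cappelli CS and 1724, 1356 and 1707 in Cappelli control. The Ofanto controls were apart below all other arrays, and the interaction of 2.58 (SE 0.22, adjusted p = 9.0e-05) came with a response of -0.17 in Cappelli that was not called. The NAC2 match (At3g15510, s_at) had a larger value (4.80, SE 0.90, adjusted p = 0.0034), but its Ofanto controls (1.89, 10.8 and 4.26) were near background. Its interaction was 0.95 (SE 0.59, adjusted p = 0.22), and not called, when signals under 64 were raised to 64. The call was also lost without Cappelli control replicate 3 (4.57) and without Ofanto CS replicate 3 (4.64).

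Both PSs matched to the splicing factor SR45 had the same form and may report the same transcripts. The brighter one (At1g16610) was at 14696, 11952 and 19858 in Ofanto CS and 976, 1109 and 1077 in Ofanto control, against 25811, 21660 and 10805 in Cappelli CS and 9654, 16245 and 19119 in Cappelli control. Only the Ofanto controls were low, and the Cappelli CS arrays overlapped the Cappelli controls. Its interaction was 3.51 (SE 0.49, adjusted p = 8.5e-04). A proteasome-related PS (At3g15180) was at 3934, 2556 and 3756 in Ofanto CS and 427, 488 and 440 in Ofanto control, against 1112, 995 and 897 in Cappelli CS and 733, 553 and 705 in Cappelli control, with an interaction of 2.30 (SE 0.26, adjusted p = 3.3e-04). A histone acetyltransferase (At5g64610), which loosens chromatin, rose by 2.78 in Ofanto, and its change of 0.70 in Cappelli was under 2-fold (interaction 2.08, SE 0.18, adjusted p = 1.1e-04).

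The match to Bax inhibitor-1 (At5g47120), a membrane protein of the endoplasmic reticulum known to hold back cell death, had the second largest positive interaction among the annotated PSs with all 4 groups above the 60th percentile. Its signal was 17924, 15021 and 18325 in Ofanto CS and 807, 868 and 743 in Ofanto control, against 2806, 2060 and 1423 in Cappelli CS and 1596, 1484 and 1628 in Cappelli control. The 3 Ofanto CS arrays stood apart above the other 9, and the Ofanto controls were below all Cappelli arrays. The interaction was 4.04 (SE 0.30, adjusted p = 5.6e-05), with 4.40 in Ofanto and 0.36, not called, in Cappelli. A putative secretory protein (At2g15220, x_at) had the largest value (4.32, SE 0.39, adjusted p = 1.2e-04), with signals of 7559, 5344 and 9504 in Ofanto CS and 450, 414 and 324 in Ofanto control, against 3982, 5158 and 3680 in Cappelli CS and 3278, 4748 and 6131 in Cappelli control, the Ofanto controls alone being low. Protease inhibitors of the potato type I family, which block proteases of insects and microbes, rose in both cvs. One of 2 such PSs (At2g38900, x_at) rose by 5.13 in Ofanto and by 1.95 in Cappelli (interaction 3.18, SE 0.37, adjusted p = 3.7e-04).

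Among signalling genes, protein kinases were called positive in 7 and negative in 1 of 62 PSs, and phospholipid and phosphoinositide enzymes in 4 and 1 of 16. The shares over all annotated PSs were 15.9% positive and 7.13% negative, and the kinases were below both. A MAP kinase match, MPK20 (At2g42880), rose by 1.85 in Ofanto and changed by -0.45 in Cappelli, which was not called, with an interaction of 2.30 (SE 0.23, adjusted p = 2.0e-04). CIPK20 (At5g45820), a kinase that reads calcium through CBL proteins, was the negative one. It stood at 1416, 1621 and 1513 in Ofanto CS and 1245, 1194 and 1742 in Ofanto control, against 1543, 2203 and 2208 in Cappelli CS and 497, 502 and 516 in Cappelli control, so that the Cappelli controls alone were low. The interaction was -1.81 (SE 0.26, adjusted p = 9.2e-04). In the list of protein phosphatases 2C and OST1 kinases 1 of 17 PSs was called, a PP2C (At4g33920, s_at, interaction 1.81, SE 0.39, adjusted p = 0.0065) whose part in ABA signalling was not examined. It kept its call only in the fits without Cappelli CS replicate 1 or 3 among the 12 that left out 1 array, with values from 1.51 to 2.13. Phospholipase D alpha 1 (At3g15730), which releases phosphatidic acid from membranes, rose by 3.17 in Ofanto and by 1.24 in Cappelli (interaction 1.93, SE 0.29, adjusted p = 0.0012).

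Calls among metabolic genes differed between lists. Branched-chain amino acid breakdown, which feeds respiration from protein, had the second highest list median (1.08), 5 positive and no negative calls in 23 PSs, and 21 PSs that rose in Ofanto against 10 in Cappelli, with 22 of the 23 from the table of up-regulated clusters. Of the 1374 annotated PSs of that table, 1057 rose in Ofanto, 674 rose in Cappelli and none fell, and their median interaction was 0.58. One member of the valine branch, 3-hydroxyisobutyryl-CoA hydrolase (At5g65940, s_at), had signals of 10401, 8075 and 10990 in Ofanto CS and 2193, 2443 and 2802 in Ofanto control, against 7182, 6125 and 5143 in Cappelli CS and 4188, 3924 and 4108 in Cappelli control and an interaction of 1.40 (SE 0.24, adjusted p = 0.0022). The list also holds homogentisate dioxygenase (At5g54080), an enzyme of tyrosine breakdown, which was called (1.64, SE 0.37, adjusted p = 0.0088) but kept its call only without Cappelli CS replicate 1 or 3 among the 12 fits without 1 array (1.30 to 1.93). Antioxidant and glutathione enzymes had 8 positive calls and 1 negative in 45 PSs, 30 of which come from the table of up-regulated clusters. Beside both lists, 15.9% of all annotated PSs were called positive and 7.13% negative, and 52.2% rose in Ofanto and 33.2% in Cappelli.

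Sugar, starch and osmolyte genes were called in both directions, 3 positive and 3 negative of 20, beside 15.9% and 7.13% of all annotated PSs. This split depended on the scaling: with median centring 6 were positive and none negative, and the median interaction went from 0.16 to 0.44. Sucrose synthase (At4g02280), which splits sucrose, was at 3886, 3687 and 4312 in Ofanto CS and 284, 261 and 280 in Ofanto control, against 2697, 2183 and 2628 in Cappelli CS and 1052, 882 and 926 in Cappelli control. It rose in both cvs, with Ofanto the lower in control and the higher in CS and no overlap in either condition, and its interaction was 2.46 (SE 0.18, adjusted p = 5.6e-05). A trehalose phosphate synthase family PS (At1g06410) rose in Ofanto by 3.27 and was not called in Cappelli (0.60), with an interaction of 2.67 (SE 0.46, adjusted p = 0.0023).

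A sugar transporter family PS (At4g00370) had the largest negative interaction among annotated PSs with all 4 groups above the 60th percentile. Its signal was 184, 170 and 145 in Ofanto CS and 4249, 4041 and 3717 in Ofanto control, against 637, 1208 and 1461 in Cappelli CS and 1975, 1903 and 1660 in Cappelli control. The Ofanto CS arrays lay below all others, and the interaction was -3.77 (SE 0.37, adjusted p = 1.8e-04), with a fall of 4.59 on the log2 scale in Ofanto and a value of -0.82 in Cappelli that was not called. Phosphoethanolamine N-methyltransferase (At1g48600), the enzyme that makes the choline head group, stood at 1480, 1434 and 1111 in Ofanto CS and 39561, 43153 and 37695 in Ofanto control, against 1819, 3591 and 4400 in Cappelli CS and 14150, 12589 and 9625 in Cappelli control. It fell by 4.91 in Ofanto and fell by 1.97 in Cappelli on the log2 scale, and the interaction was -2.95 (SE 0.42, adjusted p = 8.8e-04). Phosphoenolpyruvate (PEP) carboxykinase (At4g37870), the entry of gluconeogenesis, was at 38.4, 37.9 and 64.3 in Ofanto CS and 1300, 1586 and 1618 in Ofanto control, against 992, 1114 and 1008 in Cappelli CS and 3024, 3457 and 3932 in Cappelli control. Here the Ofanto CS arrays were below the 60th percentile, so the interaction of -3.30 (SE 0.29, adjusted p = 1.1e-04) has no exact size. The same holds for the PPi-dependent phosphofructokinase (At1g76550, interaction -3.13, SE 0.33, adjusted p = 2.5e-04), whose Ofanto CS signals were 76.2, 118 and 83.2, against 3696, 3782 and 4335 in Ofanto control.

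Transporters and aquaporins as a list had 13 positive and 6 negative calls in 57 PSs, beside 15.9% and 7.13% of all annotated PSs. Their median of -0.22 changed sign with median centring (0.06), which gave 15 positive and 2 negative calls. The largest positive one, an amino acid permease (At1g77380), was at 5088, 5376 and 5800 in Ofanto CS and 260, 198 and 228 in Ofanto control, against 2253, 1368 and 1302 in Cappelli CS and 621, 612 and 543 in Cappelli control, with an interaction of 3.15 (SE 0.29, adjusted p = 1.3e-04).

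Cell wall genes were called about as often in one direction as in the other, 7 positive and 8 negative of 50. With median centring 10 were positive and 6 negative. Over all annotated PSs the shares were 15.9% positive and 7.13% negative. A beta-expansin (At1g65680), which loosens walls during growth, had signals of 1271, 1152 and 870 in Ofanto CS and 5830, 4909 and 5192 in Ofanto control, against 943, 2489 and 2734 in Cappelli CS and 1555, 1316 and 804 in Cappelli control. The Ofanto controls stood above the other 9 arrays, and the interaction was -2.94 (SE 0.55, adjusted p = 0.0033). The fasciclin-like arabinogalactan protein FLA2 (At4g12730) was negative through Cappelli, and its signal was 4616, 3838 and 3509 in Ofanto CS and 6477, 6091 and 5205 in Ofanto control, against 2322, 2536 and 3748 in Cappelli CS and 643, 577 and 577 in Cappelli control. The Cappelli controls were far below the rest, the response in Cappelli was 2.23 and that in Ofanto, -0.57, was not called, so that the interaction came to -2.80 (SE 0.27, adjusted p = 1.6e-04). An extensin family PS (At4g13340, s_at) rose by 4.62 in Ofanto and by 1.74 in Cappelli (interaction 2.88, SE 0.31, adjusted p = 2.6e-04).

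Among lists of chloroplast and chromatin genes, organelle ribosomal proteins had 3 negative calls and 1 positive in 18 PSs, beside 7.13% and 15.9% of all annotated PSs. Their median interaction was -0.93, with a median response of -0.09 in Ofanto and 0.85 in Cappelli. The L20 family PS (At1g16740) was at 147, 193 and 148 in Ofanto CS and 474, 372 and 366 in Ofanto control, against 518, 834 and 999 in Cappelli CS and 405, 420 and 522 in Cappelli control. Only Ofanto CS was low, and the interaction was -2.08 (SE 0.34, adjusted p = 0.0018). Chloroplast L24 (At5g54600) rose in Cappelli (1.32) and was not called in Ofanto (-0.33), and its interaction (-1.64, SE 0.31, adjusted p = 0.0035) was not called without Cappelli control replicate 3 (-1.51) or without Ofanto CS replicate 3 (-1.60).

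The list of photosynthesis and chlorophyll genes had a median interaction of -0.68, with a median response of -0.78 in Ofanto and 0.31 in Cappelli, but only 1 of 23 PSs was called. This was a fructose-bisphosphate aldolase (At5g03690) that rose less in Ofanto (1.50) than in Cappelli (2.62), with an interaction of -1.12 (SE 0.18, adjusted p = 0.0017). Whether this aldolase acts in the chloroplast was not examined, so its call is not a result about photosynthesis. Histones had 3 negative calls and 1 positive in 13, beside 7.13% and 15.9% of all annotated PSs. The positive one, the linker histone H1.2 (At2g30620), rose by 4.17 in Ofanto and by 2.84 in Cappelli (interaction 1.34, SE 0.19, adjusted p = 9.0e-04). Of the negative ones, a histone H4 (At5g59970, interaction -1.30, SE 0.27, adjusted p = 0.0062) kept its call only without Ofanto CS replicate 2 or 3 or Cappelli CS replicate 3 (-1.49 to -1.09 over the 12 fits). With median centring 1 positive and 1 negative call were left among the organelle ribosomal proteins, none among the photosynthesis genes and 1 positive and 1 negative among the histones, and the medians of these lists were -0.65, -0.40 and -0.15, while that of the 19 cytosolic ribosomal proteins, -0.23 with 2 negative calls, became 0.05 with median centring. The type-A cytokinin response regulator RR3 (At2g41310), whose transcript marks cytokinin signalling, fell by 6.15 in Ofanto and fell by 2.84 in Cappelli on the log2 scale. Its interaction of -3.31 (SE 0.73, adjusted p = 0.0078) was called in no fit without 1 array except that without Cappelli CS replicate 1 (-4.02).

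**Figure D4:**
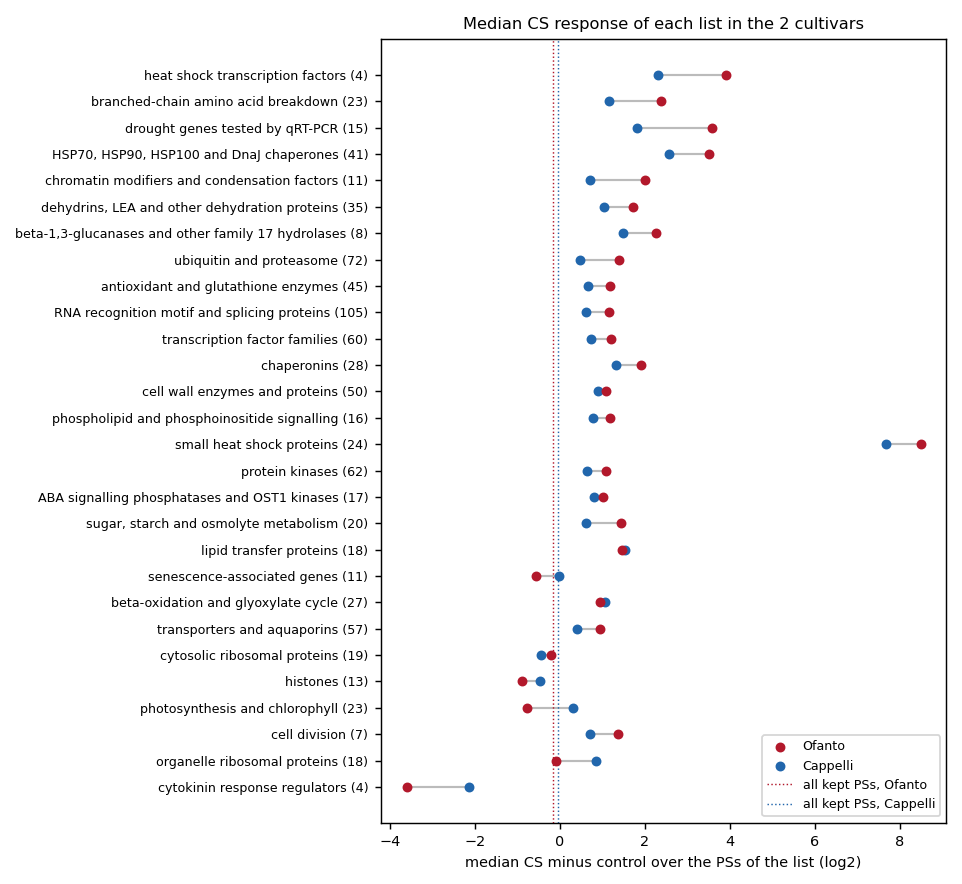
Median CS response (CS minus control, log2) of 28 gene lists in Ofanto (red) and Cappelli (blue), with the number of PSs in brackets and the medians of all kept PSs as dotted lines (-0.16 in Ofanto, -0.05 in Cappelli). Over all annotated PSs the median responses were 1.10 in Ofanto and 0.70 in Cappelli. Lists are ordered by the median over their PSs of the interaction itself, which need not equal the gap between the 2 medians shown. Small heat shock proteins lie far to the right in both cvs (8.48 and 7.68), and organelle ribosomal proteins and photosynthesis genes have the Ofanto point left of the Cappelli point.

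In 74 PSs the cvs moved in opposite directions, and the 6 annotated ones with the largest absolute interaction were examined on the single arrays. A nodulin MtN3 family PS (At1g21460), of the family that holds the SWEET sugar exporters, was at 746, 907 and 978 in Ofanto CS and 270, 258 and 229 in Ofanto control, against 624, 1105 and 808 in Cappelli CS and 1550, 2648 and 2214 in Cappelli control. The cvs were far apart in control and overlapped in CS, with an interaction of 3.13 (SE 0.34, adjusted p = 2.7e-04). Ferrochelatase I (At5g26030), the last enzyme of heme synthesis, was at 1153, 837 and 1174 in Ofanto CS and 416, 311 and 487 in Ofanto control, against 782, 626 and 396 in Cappelli CS and 1848, 1665 and 2098 in Cappelli control. It rose by 1.39 in Ofanto and fell by 1.69 in Cappelli on the log2 scale, with an interaction of 3.08 (SE 0.37, adjusted p = 4.3e-04). A peptidase S41 family PS (At3g57680, x_at, interaction 2.31, SE 0.24, adjusted p = 2.3e-04) and a phosphatidylinositol kinase family PS (At2g46500, interaction 2.07, SE 0.28, adjusted p = 7.5e-04) likewise rose in Ofanto and fell in Cappelli. A toprim domain PS (At1g30680, s_at), whose Arabidopsis match belongs to the family of primases and helicases of organelle DNA, was at 673, 697 and 538 in Ofanto CS and 1668, 1353 and 1369 in Ofanto control, against 1579, 2794 and 3318 in Cappelli CS and 992, 912 and 779 in Cappelli control. It fell in Ofanto and rose in Cappelli, and in CS the cvs did not overlap, with an interaction of -2.66 (SE 0.36, adjusted p = 6.7e-04). A WD-40 repeat family PS (At2g18900) had the same form (-2.86, SE 0.35, adjusted p = 4.3e-04).

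Among all annotated PSs in which each cv had at least 1 group above the 60th percentile, allene oxide synthase (At5g42650), the first committed enzyme of jasmonate synthesis, had the largest positive interaction in the deposited values, 8.59 (SE 0.89, adjusted p = 2.3e-04), but not when signals under 64 were raised to 64 (5.26, against 6.20 for a cytochrome P450 family PS, At3g26310). Its signal was 468, 105 and 570 in Ofanto CS and 166, 151 and 145 in Ofanto control, against 14.1, 5.26 and 3.48 in Cappelli CS and 1072, 1197 and 1480 in Cappelli control. The transcript was at background in Cappelli CS, where it fell by 7.60 on the log2 scale to a value with no exact size, and the response in Ofanto, 0.98, was not called.

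Ribonuclease RNS1 (At2g02990), in Arabidopsis induced by phosphate shortage and wounding, was also positive through Cappelli, with signals of 6621, 6454 and 4769 in Ofanto CS and 6229, 6174 and 5842 in Ofanto control, against 196, 1117 and 1091 in Cappelli CS and 7286, 7918 and 7576 in Cappelli control. Cappelli CS replicate 1 was lowest, and the call (3.56, SE 0.76, adjusted p = 0.0066) was kept without any 1 of the Cappelli CS arrays and lost without any 1 of the other 9, with values from 2.73 to 3.99. Of PSs with no annotation at hand and at least 1 group of each cv above the 60th percentile, an x_at PS had the largest positive interaction, 11.34 (SE 1.09, adjusted p = 1.6e-04), with signals of 316, 166 and 356 in Ofanto CS and 4.03, 5.47 and 5.45 in Ofanto control, against 32.7, 28.2 and 3.01 in Cappelli CS and 441, 809 and 871 in Cappelli control, the low groups being near background, and its value was 5.45 when signals under 64 were raised to 64. The most negative one of these was another x_at PS (-6.06, SE 0.52, adjusted p = 1.0e-04), at 1148, 1416 and 584 in Ofanto CS and 6392, 6724 and 5756 in Ofanto control, against 421, 645 and 739 in Cappelli CS and 85.7, 38.5 and 53.2 in Cappelli control.

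Isocitrate lyase and malate synthase, the enzymes particular to the glyoxylate cycle, which turns fatty acid carbon into sugar precursors, had high signals in Cappelli CS, with 1 of its arrays apart. Isocitrate lyase (At3g21720) was at 43.1, 2.15 and 27.2 in Ofanto CS and 54.2, 7.78 and 4.25 in Ofanto control, against 21085, 16076 and 1481 in Cappelli CS and 45.6, 84.9 and 56.0 in Cappelli control. The 3 Cappelli CS arrays were above the other 9, which were at background, but replicate 3 held far less than replicates 1 and 2. The response in Cappelli was called (7.05), and the interaction was not (-6.88, SE 1.91, adjusted p = 0.021). Malate synthase (At5g03860) had the same order in Cappelli CS, 11479, 8259 and 1132, and an interaction of -5.98 (SE 1.80, adjusted p = 0.03), also not called. With signals under 64 raised to 64, the interaction of isocitrate lyase was called (-6.82, SE 1.04, adjusted p = 6.0e-04). So was that of malate synthase (-5.58, SE 1.07, adjusted p = 0.0022). The x_at PS of the same transcript cluster, with 12483, 8236 and 791 in Cappelli CS, was called (-5.28, SE 1.18, adjusted p = 0.008), but of the 12 fits that left out 1 array only that without Cappelli CS replicate 3 kept the call (-6.51). Another PS that the study assigns to this cycle (aconitase) had the opposite direction, with signals of 1066, 953 and 1368 in Ofanto CS and 217, 241 and 337 in Ofanto control, against 1516, 1094 and 479 in Cappelli CS and 1588, 1027 and 1534 in Cappelli control and an interaction of 2.65 (SE 0.54, adjusted p = 0.0051), whose call was lost in 7 of the 12 fits without 1 array, those without Ofanto control replicate 1 or 2, Cappelli control replicate 1 or 3, Ofanto CS replicate 1 or 3 or Cappelli CS replicate 2 (2.18 to 3.01 over the 12). In the list of beta-oxidation and glyoxylate genes 4 of 27 PSs were called positive and 2 negative, close to the 15.9% and 7.13% of all annotated PSs. The median interaction of -0.13 became 0.14 with median centring.

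To see how the difference between the cvs under CS compares with that under heat alone, the cv difference in the CS response was set against the cv difference in the HS response. The control arrays drop out of this comparison, which was fitted on all 24 arrays. It was called for 5853 PSs, which is 21.8% of those tested, 2181 (8.12%) with a larger and 3672 (13.7%) with a smaller difference (Ofanto minus Cappelli) under CS than under HS. With every array centred on its own median the split was 2590 larger and 2706 smaller. Of the 21 PSs that lead the annotated calls with all 4 groups above the 60th percentile or lead the opposite responses, 15 were called. These 21 were chosen for a large interaction under CS, and a smaller value under another stress follows in part from that choice. Bax inhibitor-1 had a cv difference of 4.04 under CS, -0.73 under HS and 1.25 under DS, and CS against HS was called (4.77, adjusted p = 2.5e-09). Phosphoethanolamine N-methyltransferase had -2.95 under CS, 1.88 under HS and -0.47 under DS (-4.82, adjusted p = 1.0e-08 for CS against HS). For the nodulin MtN3 PS, with 3.13 under CS and 3.31 under HS, CS against HS was not called (-0.17, adjusted p = 0.71), and neither was it for HEL, with 6.68 under CS and 5.63 under HS (1.05, adjusted p = 0.13). Among the lists, CS against HS was called positive in 28 and negative in 3 of the 41 chaperone PSs, positive in 16 and negative in none of the 23 branched-chain amino acid PSs, and positive in 1 and negative in 15 of the 18 organelle ribosomal PSs, where 32.8% of all annotated PSs were called positive and 13.9% negative. Of the 1372 kept annotated PSs in the study's table of up-regulated clusters, 687 were called positive and 0 negative. That table holds 36 of these chaperone PSs, 22 of the branched-chain PSs and 2 of the organelle ribosomal PSs. The few negative calls in the first 2 lists thus follow in part from their making. The values under CS, HS and DS share their control arrays within each cv, so their likeness is not a result.

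**Figure D5:**
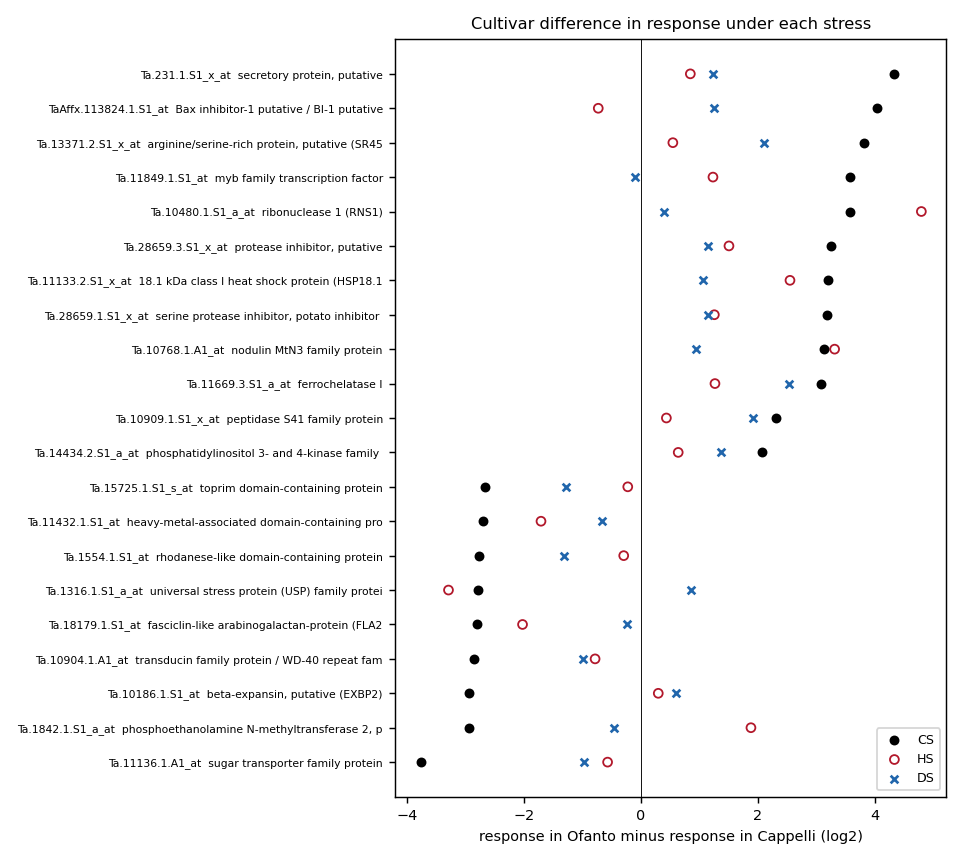
Cv difference in response (Ofanto minus Cappelli, log2) of 21 annotated PSs under CS (black), HS (open red) and DS (blue crosses), each against the same controls. PSs are those with the largest positive and negative interactions among calls with all 4 groups above the 60th percentile and the 6 leading opposite responses. Bax inhibitor-1 lies at 4.04 under CS and at -0.73 under HS, whereas nodulin MtN3 lies at 3.13 and 3.31.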

How the data were processed

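Leaf RNA of the 4 groups was hybridised to Affymetrix Wheat Genome Arrays. The authors deposited 1 intensity value per PS and array, on a linear scale; the submitters' processing notes name MAS5, which scales each array to a common trimmed mean, while the methods analysed RMA values, so low signals may differ from those of the study. The 111 control PSs were left out, and log2 was taken with no offset. The model had 1 mean for each of the 4 groups and was fitted in R 4.3.3 by limma 3.58.1 with moderated variances, on 8 residual degrees of freedom and 2.09 from the prior. The Benjamini-Hochberg adjustment covered the 26861 PSs kept. A call needs an adjusted p under 0.01 and 2-fold. CS against HS was fitted on all 24 arrays. The script was tested on simulated data.

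Gene names are the best Arabidopsis matches in the study's tables, of which parts were at hand (2500 PSs with an annotation), and each PS is given by the code of its match, which several PSs can share. Named PSs are the leading calls by size among annotated PSs, with all 4 groups above the 60th percentile, in opposite directions and in each list, and those the study names by ID, and the text prints part of them. The members and the gene lists were chosen with earlier results of these data known. The smallest mean absolute log2 difference between 2 of the 12 arrays was 0.856, so none is a copy. The labels name hot phenol extraction and whole-transcript labelling where the methods name TRIZOL and a One-Cycle kit. Alternatives covered the scaling, filter, floor, thresholds, variance model, replicate block and each array left out. The number of arrays limits the precision.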

Additional observations from a re-analysis of the deposited data

Results flagged for a closer look

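The CS response differed between Ofanto and Cappelli, by the test of the difference itself, in 3810 PSs, and in 74 of them both responses were called and ran in opposite directions. Between CS and HS the cv difference in response changed in 5853 PSs. The 6 leading annotated PSs with opposite responses were flagged for the same difference between cvs, with interactions of 3.13 for the nodulin MtN3 family PS, 3.08 for the ferrochelatase I PS, 2.31 for the peptidase S41 family PS, 2.07 for the phosphatidylinositol kinase family PS, -2.66 for the toprim domain PS and -2.86 for the WD-40 repeat family PS.

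The poly-A spike-ins, bacterial RNAs added to each sample before labelling and outside every comparison, were higher in CS than in control in both cvs, with log2 differences of 1.04 (Ofanto) and 1.10 (Cappelli). Their mean log2 signal was 12.49 in Ofanto CS and 11.45 in Ofanto control, against 11.30 in Cappelli CS and 10.20 in Cappelli control. Ofanto was thus above Cappelli in both conditions. The Cappelli CS arrays stood at 11.68, 11.43 and 10.79. The interaction of the spike-ins was -0.06, and their part in the results, including the cv differences, was not tested.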

How the results depend on the processing

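Over all settings the calls for the interaction ran between 634 and 6265 PSs. With separate group variances, the counterpart of the methods' t-test, the interaction was called for 634 PSs, 410 positive and 224 negative, and the CS response for 3201 in Ofanto and 176 in Cappelli. Without a filter on low values 954 PSs were called (553 positive and 401 negative), and at an adjusted p under 0.05, 6265 (2869 and 3396). Leaving out Ofanto control replicates 2 and 3 left 1454 (1022 and 432), which rests the Ofanto control on 1 array whose spread is assumed to equal that of the other groups. Median centring gave 1019 negative calls and quantile normalization a split of 1964 positive and 1721 negative. With the 12 CS and HS arrays alone, 2106 PSs were called negative for CS against HS.

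Leaving out 1 array gave 2637 to 4627 PSs for the interaction, 1401 to 2030 positive and 1222 to 2597 negative, with the larger response in Ofanto for 1938 to 3416 and in Cappelli for 698 to 1211. The negative count moved by over 1.5 times without Ofanto control replicate 2 (1273), Cappelli control replicate 3 (1222) and Cappelli CS replicate 2 (1240). The CS response was called for 8135 to 9196 PSs in Ofanto and for 4616 to 5707 in Cappelli, the cv difference for 2651 to 3922 in CS and for 2678 to 4089 in control (these fits were added after the data were seen), and CS against HS for 4997 to 6870, 1878 to 2562 positive and 3119 to 4308 negative.

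The methods describe a randomized block design and do not say whether the replicate numbers name its blocks. Of 18 same-numbered pairs none had a correlation of deviations over 0.1 (-0.147 to 0.0412). With so few arrays per group, this cannot decide whether the samples were blocked. With the replicate block the interaction was called for 2960 PSs, 1554 positive and 1406 negative, and CS against HS for 5736.

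Of the 92 named PSs that were called, 66 kept the call in all 12 fits without 1 array, 7 lost it in 1 to 6 and 19 in 7 to 12 of them. The call was kept by 26 with separate group variances, 55 without Ofanto control replicates 2 and 3, 73 with the replicate block, 81 with median centring, 86 with quantile normalization, 90 with a floor of 64 and 90 with 24 arrays. The interaction of TLP reversed to 1.02 with the floor of 64. Of the genes tested by qRT-PCR that were not called, RHSF11 ran between -0.73 (without Cappelli CS replicate 3) and 0.021, reversed, without Cappelli CS replicate 1, and the cold regulated protein between -0.10, reversed, without Cappelli CS replicate 3 and 1.09 without Cappelli CS replicate 1. Groups below the 60th percentile of their arrays are near background, where a difference has no exact size.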
